A study of Mus musculus with 3 samples.

Results

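The genes described here are the metallothioneins and the zinc and copper transporters of mouse RAW264.7 cells. They were chosen by name from a deposited table of 54532 genes: protein-coding genes named Mt1 to Mt4, the families Slc30a and Slc39a, Slc31a1, Slc31a2, Mtf1 and Mtf2. This gave 32 genes, of which 22 averaged 1 FPKM or more over the libraries. FPKM counts fragments for each kilobase of a gene after scaling for depth. The set was proposed because Mt1 was higher and Mt2 and Mt3 lower with hormone in these same libraries, so those directions chose the set and are given as description, with no test.

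RAW264.7 is a wild-type macrophage line that becomes osteoclast-like, the bone-resorbing cell type, under the cytokine RANKL. All cells had RANKL for 3 days. A library labelled 0 h had no added thyroid stimulating hormone (TSH), and 2 libraries had 10 mU/mL of TSH for 2 h or for 24 h. The table names the TSH libraries T1 and T2 and does not say which had 2 h, so nothing is read from the hours, and time in culture and TSH cannot be told apart. There was 1 library per group and 1 cell line, so no difference has a replicate check and no p-value is given.

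Metallothioneins are very small proteins rich in cysteine whose sulfur atoms bind zinc, copper and cadmium. Mt1 and Mt2 are made in most tissues and are induced by metals, by glucocorticoids and by oxidative stress. Mt3 is best known from the brain and Mt4 from stratified epithelium. Slc30a proteins move zinc out of the cytosol, to the outside or into organelles, and Slc39a proteins move it into the cytosol. MTF1 is the zinc-sensing transcription factor that binds metal response elements in the promoters of Mt1, Mt2 and Slc30a1.

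The coding sequences show the feature that defines the metallothioneins. They are printed for the 3 metallothionein genes with reads, from transcripts of GENCODE release M21 without the stop codon, with each in-frame cysteine codon in capitals.
Mt1: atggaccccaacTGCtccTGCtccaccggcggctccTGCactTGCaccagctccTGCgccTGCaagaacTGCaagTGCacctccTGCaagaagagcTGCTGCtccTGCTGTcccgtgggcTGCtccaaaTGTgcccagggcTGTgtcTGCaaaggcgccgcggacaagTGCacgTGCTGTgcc
Mt2: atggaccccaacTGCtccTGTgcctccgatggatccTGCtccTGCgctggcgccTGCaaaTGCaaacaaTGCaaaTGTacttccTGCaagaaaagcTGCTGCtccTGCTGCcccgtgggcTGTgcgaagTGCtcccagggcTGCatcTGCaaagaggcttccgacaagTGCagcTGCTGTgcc
Mt3: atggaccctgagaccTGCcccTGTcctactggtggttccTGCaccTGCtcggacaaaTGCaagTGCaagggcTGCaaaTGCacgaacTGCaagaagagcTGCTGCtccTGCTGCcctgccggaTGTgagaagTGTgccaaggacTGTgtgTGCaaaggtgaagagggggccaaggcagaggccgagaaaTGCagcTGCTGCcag
Each holds 20 cysteine codons, among 61 codons in Mt1 and Mt2 and 68 in Mt3. Mt1 and Mt2 were identical at 145 of 183 aligned bases (79.2%), Mt1 and Mt3 at 134 of 204 (65.7%), and Mt2 and Mt3 at 137 of 204 (67.2%). None of Mt1, Mt2 and Mt3 had a near-identical copy, meaning a transcript aligned with 95% identity or more over 100 bases or more and over 50% of the shorter partner.

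The 4 metallothionein genes lie on the plus strand of chromosome 8 (GRCm38), in the order Mt4, Mt3, Mt2, Mt1. Mt3 spans 94152607 to 94154146, Mt2 94172664 to 94173568 and Mt1 94179082 to 94180327, so the starts of Mt3 and Mt2 are 26.5 and 6.4 kb before that of Mt1. Mt1 and Mt2 are neighbours with different levels in these cells, so their upstream sequences are shown beside that of Mt3. Each is the 250 bases before the gene's RefSeq start on GRCm38.p6, plus strand, and capitals mark the core of the metal response element, TGCACNC or TGCGCNC on either strand.
Mt1 chr8:94178839-94179088: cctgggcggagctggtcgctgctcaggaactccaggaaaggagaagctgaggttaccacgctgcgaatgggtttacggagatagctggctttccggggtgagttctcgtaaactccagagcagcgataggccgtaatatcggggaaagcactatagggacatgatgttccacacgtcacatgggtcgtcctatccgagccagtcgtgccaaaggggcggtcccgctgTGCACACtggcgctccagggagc
Mt2 chr8:94172368-94172617: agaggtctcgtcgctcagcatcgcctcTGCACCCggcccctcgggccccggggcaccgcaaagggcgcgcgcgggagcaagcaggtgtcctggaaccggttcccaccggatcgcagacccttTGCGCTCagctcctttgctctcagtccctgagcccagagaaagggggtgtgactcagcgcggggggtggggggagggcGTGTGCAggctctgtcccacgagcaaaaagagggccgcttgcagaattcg
Mt3 chr8:94152357-94152606: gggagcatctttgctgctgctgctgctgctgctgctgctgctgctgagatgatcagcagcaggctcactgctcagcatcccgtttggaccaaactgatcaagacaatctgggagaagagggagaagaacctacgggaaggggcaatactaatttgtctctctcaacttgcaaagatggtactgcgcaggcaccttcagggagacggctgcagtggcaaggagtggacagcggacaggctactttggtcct
The Mt2 window held 3 matches, starting at -223, -128 and -50 from the RefSeq start, the Mt1 window 1, at -23, and the Mt3 window 0. At least 1 match was present in 21.4% of all 32851 RefSeq windows of this length, and at least 3 in 1.26%. With the 50 bases after the start included, the counts were 3 for Mt1, 4 for Mt2 and 1 for Mt3, where 1.97% of all 300-base windows had at least 3. GENCODE places some starts elsewhere. Its transcripts start at -7, 122 and 152 bases from the RefSeq start in Mt1 and at 46 and 242 in Mt2. In Mt3 they start at 0 and 139. Their own upstream bases therefore lie outside these windows in part. For the Mt1 starts at 122 and 152, bases more than 50 after the RefSeq start were not searched. The counts of matches therefore do not rank the genes, and their part in the levels was not tested. The Mt2 match at -223 is more than 250 bases before the main GENCODE start at 46. Matches at the same start on both strands were counted once, and matches may overlap. Among all 32 genes, 28 had a window in the RefSeq table, and 16 of their 34 windows held at least 1 match.

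The recovered read totals were 16156926 (RANKL alone), 16809034 (T1) and 17390744 (T2). The cells carried osteoclast transcripts: 8 of 9 osteoclast markers averaged 1 FPKM or more, and the list sums were 3083, 2561 and 2485 FPKM in RANKL alone, T1 and T2. Macrophage markers, 6 of 7 past the same limit, summed to 1232, 1219 and 1220 FPKM, a sum carried by Csf1r and Cd68. Of the markers of neutrophils, osteoblasts and fibroblasts, lymphocytes, neurons and keratinocytes, 0 of 6, 0 of 7, 0 of 6, 0 of 6 and 0 of 5 passed. The neuron list includes the astrocyte gene Gfap. Each ratio below divides the FPKM of a TSH library by that of RANKL alone, unless stated otherwise, and carries an exact 95% interval computed from reads. A gene is called higher or lower beyond counting error where that interval excludes a ratio of 1. This compares libraries, not conditions.

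Mt1 was the most abundant of the 32 genes. It stood at 409 FPKM without TSH, 475 in T1 and 526 in T2, from 8215, 9922 and 11486 reads. Among the 9497 coding genes averaging 1 FPKM or more, that level ranked 94, 76 and 65 from the top. RANKL alone was the lowest library and T2 the highest, with a T1 ratio of 1.16 (1.13 to 1.20) and a T2 ratio of 1.29 (1.25 to 1.32). By its difference in log2(FPKM + 1), Mt1 was number 353 of these coding genes from the most positive in T1 and number 72 in T2.

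Mt3 went the other way in both TSH libraries. It stood at 15.3 FPKM without TSH, 6.55 in T1 and 7.01 in T2, from 263, 117 and 131 reads. RANKL alone was far above both TSH libraries, which lay close together. Its T1 ratio was 0.428 (0.341 to 0.534) and its T2 ratio 0.458 (0.369 to 0.567). On the scale of log2(FPKM + 1), which understates changes of low genes, these were differences of -1.11 and -1.02. In order from the most negative difference, Mt3 was number 5 of the 9497 coding genes in T1 and number 2 in T2.

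Mt2 was low and also lower in both TSH libraries. It stood at 9.28 FPKM without TSH, 4.67 in T1 and 5.73 in T2, from 88, 46 and 59 reads. RANKL alone was again the highest library, with a T1 ratio of 0.503 (0.344 to 0.726) and a T2 ratio of 0.617 (0.436 to 0.868). The differences in log2(FPKM + 1) were -0.86 and -0.61, number 6 and number 10 from the most negative. An antisense gene, Gm45774, overlaps 749 bases of Mt2 and had 5, 2 and 6 reads, and whether the counting used strand is not given in the sources used here. Mt4 had 0 reads in each library, which allows up to 0.467, 0.450 and 0.430 FPKM for a floor of 3 reads.

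**Figure D1:**
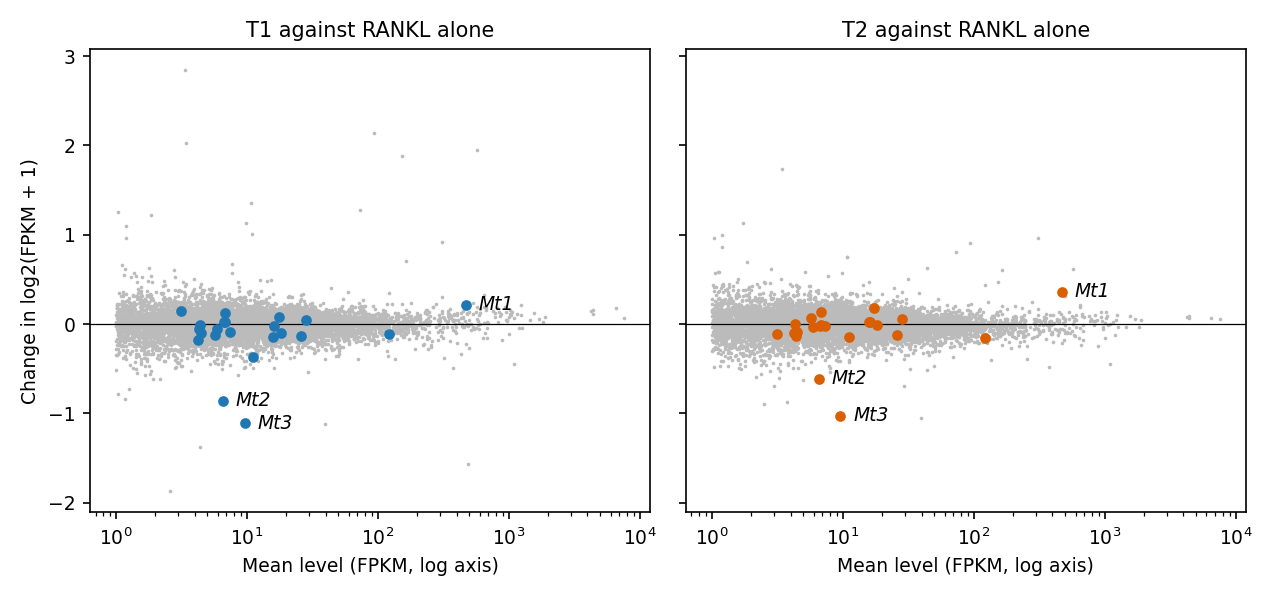
Difference in log2(FPKM + 1) from RANKL alone (vertical axis) against mean FPKM over the 3 libraries (horizontal log axis) for the 9497 coding genes averaging 1 FPKM or more (grey) and the 22 measured genes of the set (coloured), T1 left and T2 right. Mt3 and Mt2 sit below nearly all grey points in both panels. Mt1 lies above 0, at 0.22 in T1 and 0.36 in T2, number 353 and number 72 from the most positive. Both panels share the library of RANKL alone.

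The directions that chose the set already imply a larger Mt1 share with TSH, so the makeup of metallothionein RNA is given as description. Mt1 gave 95.9% of the 8566 metallothionein reads without TSH (exact binomial 95% interval 95.5 to 96.3%). It gave 98.4% of 10085 reads in T1 (98.1 to 98.6%) and 98.4% of 11676 in T2 (98.1 to 98.6%). Mt3 gave 3.07%, 1.16% and 1.12%, and Mt2 1.03%, 0.456% and 0.505%. Per length, the FPKM of Mt1 was 44.1 times that of Mt2 without TSH, 101.8 times in T1 and 91.9 times in T2. The summed metallothionein reads, scaled to depth, had a T1 ratio of 1.13 (1.10 to 1.17) and a T2 ratio of 1.25 (1.22 to 1.29), and these sums are nearly all Mt1.

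The TSH libraries share the library of RANKL alone, so a high or low value in that library enters both comparisons. T2 against T1 does not use it. There the ratio of Mt1 was 1.11 (1.08 to 1.14), higher in T2, while Mt3 was at 1.07 (0.829 to 1.39) and Mt2 at 1.23 (0.821 to 1.85), both within counting error. Of the 8 osteoclast markers past the limit, 5 were lower and 1 higher beyond counting error in T1, and 8 were lower in T2. Of the 6 macrophage markers past it, 3 were higher and 2 lower in each: Adgre1 (1.41 and 1.34) and Lyz2 (1.08 and 1.15) were higher in both, Itgam in T1 (1.52) and Cd14 in T2 (1.10), and Csf1r and Cd68 were lower in both. Of the 11069 genes, coding and noncoding, averaging 1 FPKM or more, 10.8% were higher and 12.2% lower in T1, and 10.2% higher and 13.2% lower in T2. The part of these markers in the metallothionein values was not tested, and in bulk RNA fewer cells of a type and less RNA per cell cannot be told apart. The neuron list, read because Mt3 is best known from the brain, summed to 0.136, 0.0885 and 0.0407 FPKM. Of these sums, the astrocyte gene Gfap gave 0.0882, 0.0566 and 0.0271 FPKM. All 5 keratinocyte markers had 0 reads.

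**Figure D2:**
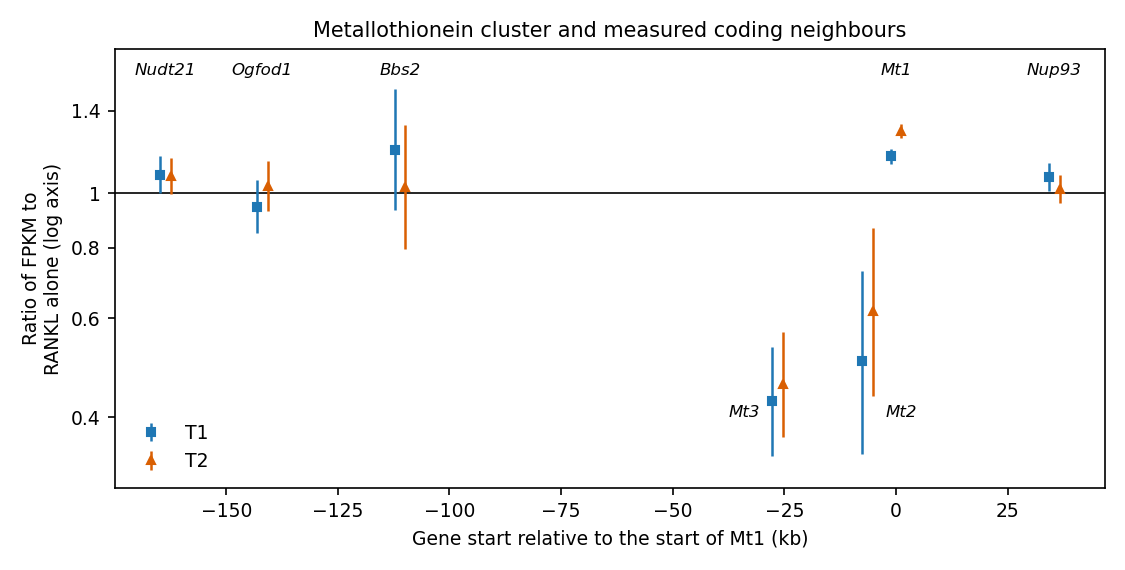
Ratio of FPKM to RANKL alone (vertical log axis, bars are exact 95% counting intervals) for the metallothionein genes and the coding neighbours with a start within 200 kb of that of Mt1 that averaged 1 FPKM or more, by the distance of each gene's start from that of Mt1 in kb. Mt3 and Mt2 lie below 1 in T1 and T2, Mt1 above 1, and the ratios of the other 4 genes range from 0.947 to 1.19.

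The neighbouring genes described here did not share the differences of Mt2 and Mt3 in size. Nup93, a nuclear pore gene on the far side of Mt1, stood at a T1 ratio of 1.07 (1.01 to 1.13) and a T2 ratio of 1.02 (0.959 to 1.08). Bbs2, a gene of the primary cilium before Mt4, stood at 1.19 (0.932 to 1.53) and 1.03 (0.797 to 1.32). Nudt21 and Ogfod1 were within counting error in both. Slc12a3 had 0 reads and Gnao1 2 reads in all, so neither was measurable.

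Over the 22 measured genes, 8 were beyond counting error in T1, 1 higher and 7 lower, where 23.1% of all genes past the limit were so. In T2 the count was 6, 2 higher and 4 lower, against 23.4%. Since these contrasts chose the set, nothing is read from the counts. Without the 3 metallothioneins the counts were 5 of 19 in T1 and 3 of 19 in T2. The median difference in log2(FPKM + 1) was -0.08 in T1 and -0.02 in T2, beside a median of 0.00 over all genes in both. A 2-fold size rule, an absolute difference of at least 1, was passed by Mt3 alone in each comparison, against 1.04% and 0.768% of all genes. These shares include noncoding genes, and among the 9497 coding genes Mt3 was number 5 and number 2 from the most negative.

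**Figure D3:**
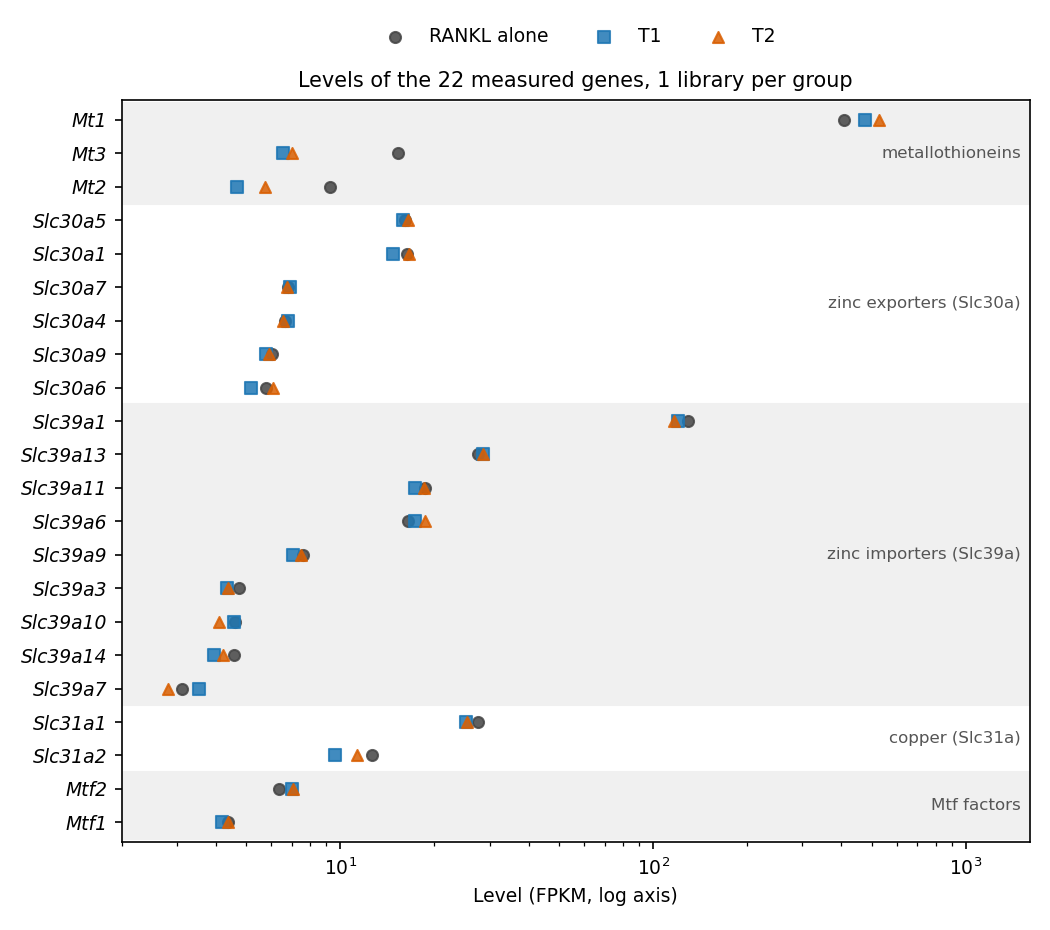
Level of the 22 measured genes in FPKM (log axis) in the library of RANKL alone (grey circles), T1 (blue squares) and T2 (orange triangles), grouped by role. The 3 libraries nearly coincide for most transporters, while Mt3 and Mt2 have RANKL alone well to the right of T1 and T2 and Mt1 has it to the left.

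The zinc exporter family, Slc30a, was led by Slc30a1 and Slc30a5. Slc30a1, the exporter of the cell surface, stood at 16.4 FPKM without TSH, 14.7 in T1 and 16.6 in T2. T1 was the low library, with a ratio to RANKL alone of 0.899 (0.833 to 0.971), and T2 was within counting error at 1.01 (0.942 to 1.09). In T2 against T1 it was higher, at 1.13 (1.05 to 1.22).

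Slc30a5, which works in the early secretory pathway in a complex with Slc30a6, stood at 16.2, 15.9 and 16.4 FPKM. Slc30a6 stood at 5.77, 5.20 and 6.11 FPKM, with a ratio in T1 of 0.901 (0.760 to 1.07). Both were within counting error in every comparison. The same held for Slc30a7 of the Golgi at 6.79, 6.89 and 6.74 FPKM, Slc30a4 of endosomes and lysosomes at 6.67, 6.80 and 6.55, and the mitochondrial Slc30a9 at 6.06, 5.77 and 5.90. The summed reads of the family had a T1 ratio of 0.965 (0.932 to 0.999) and a T2 ratio of 1.002 (0.969 to 1.04).

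The other 4 exporter genes were at or near 0. Slc30a2 and Slc30a3, of secretory and synaptic vesicles, each had 3 reads in RANKL alone, 2 in T1 and none in T2. Slc30a8, the zinc transporter of insulin granules, and Slc30a10, a manganese exporter, had 0 reads in each library.

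The zinc importer family, Slc39a, had 9 of 14 members past the limit, and Slc39a1 was the most abundant. Slc39a1, a zinc importer of the cell surface, stood at 129.7 FPKM without TSH, 119.9 in T1 and 116 in T2. RANKL alone was the highest library, with a T1 ratio of 0.924 (0.888 to 0.962) and a T2 ratio of 0.897 (0.862 to 0.933). It has a processed pseudogene, Slc39a1-ps, of 97.7% identity, and with its reads added the ratios were 0.924 and 0.894. Slc39a1 held 4945 of the 12161 reads of the family without TSH, and the family sums had ratios of 0.959 (0.935 to 0.983) and 0.963 (0.940 to 0.988).

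Slc39a6 and Slc39a10 are related importers that pair at the cell surface. Slc39a6 stood at 16.4 FPKM without TSH, 17.3 in T1 and 18.7 in T2, with ratios of 1.06 (0.971 to 1.15) and 1.14 (1.05 to 1.24). Against RANKL alone it was the single transporter higher beyond counting error, in T2. Slc39a10 stood at 4.61, 4.58 and 4.10 FPKM and was within counting error, at 0.890 (0.779 to 1.02) in T2.

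Slc39a14, which carries zinc, iron and manganese and is induced in inflammation, stood at 4.58 FPKM without TSH, 3.95 in T1 and 4.21 in T2. T1 was the low library, at a ratio of 0.862 (0.777 to 0.956), and T2 was within counting error at 0.919 (0.831 to 1.02). Slc39a7, which releases zinc from the endoplasmic reticulum, stood at 3.11, 3.54 and 2.82 FPKM from 130, 154 and 128 reads. Its T1 ratio was 1.14 (0.896 to 1.45) and its T2 ratio 0.906 (0.704 to 1.17), and it shares sequence with the readthrough gene Gm20427.

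Slc39a13, Slc39a11 and Slc39a9 are importers of the secretory pathway. Slc39a13 stood at 27.6, 28.6 and 28.7 FPKM, Slc39a11 at 18.6, 17.3 and 18.5, and Slc39a9 at 7.61, 7.08 and 7.48, all within counting error. Slc39a3, of the cell surface, stood at 4.74, 4.34 and 4.38 FPKM, also within it. Slc39a13 overlaps the abundant proteasome gene Psmc3 on the other strand, and Slc39a9 overlaps Erh, so reads in those stretches are uncertain.

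Of the importers under 1 FPKM, Slc39a5 was nearest to the limit, with 14, 27 and 17 reads, and a ratio of 1.85 (0.939 to 3.83) in T1. Its whole span of 5299 bases overlaps Ankrd52 on the other strand (3008, 3233 and 3317 reads), so the few reads of Slc39a5 are uncertain. Slc39a4, the intestinal zinc importer, had 11, 15 and 14 reads, and Slc39a8, which carries zinc and manganese, had 10, 17 and 13. Slc39a2 had 12, 4 and 11 reads and overlaps Mettl17 on the same strand, and Slc39a12 had 0. At these depths no difference between libraries was detectable.

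**Figure D4:**
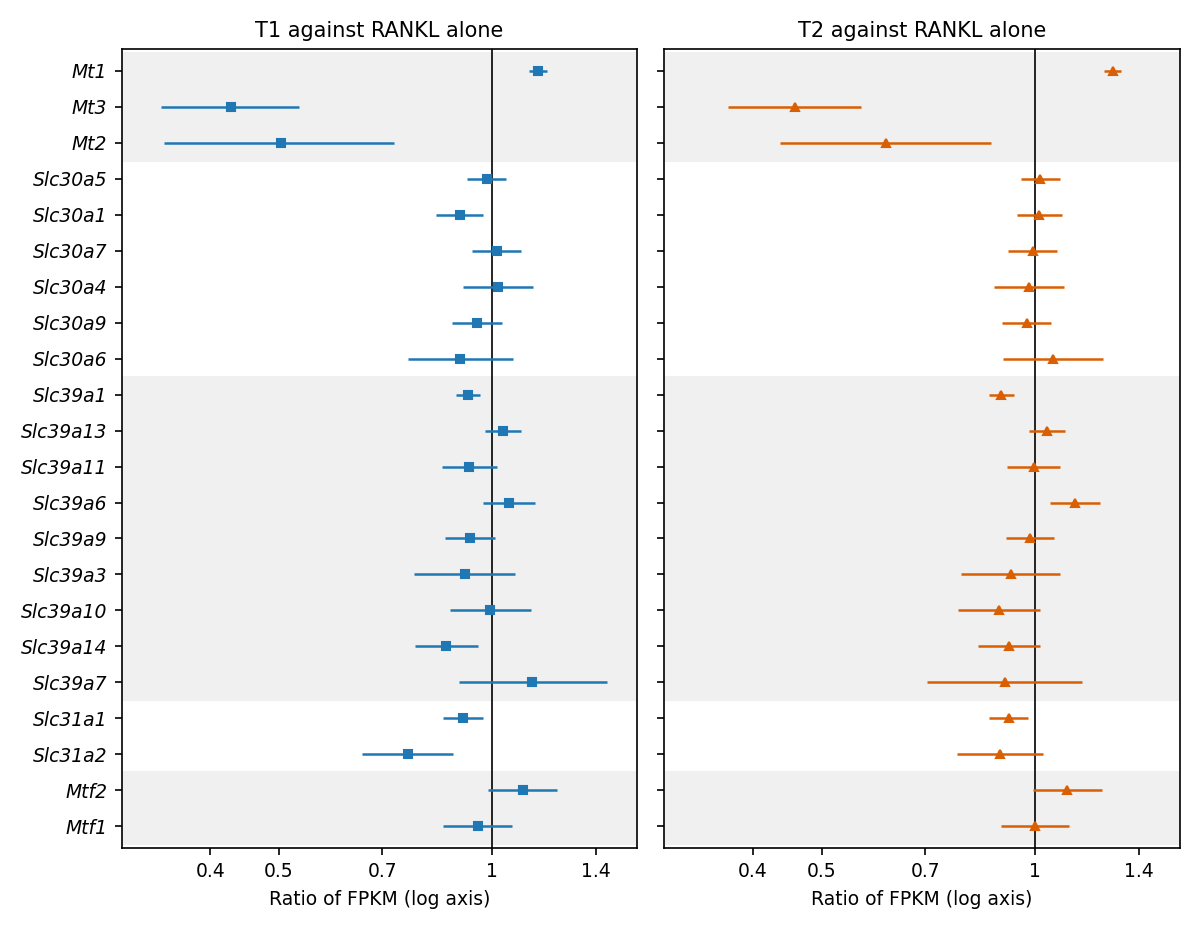
Ratio of FPKM to RANKL alone (log axis) for the 22 measured genes, T1 left and T2 right, with exact 95% counting intervals as bars and the same order of roles from top to bottom (metallothioneins, Slc30a, Slc39a, Slc31a, Mtf). Mt1 lies right of 1 and Mt2 and Mt3 left of it in both panels, and most transporter intervals include 1.

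Both copper transporters were lower beyond counting error in T1, and 1 of 2 in T2, where 12.2% and 13.2% of all genes were lower. With 2 genes, nothing is read from these counts. Slc31a1, the high-affinity copper importer, stood at 27.6 FPKM without TSH, 25.2 in T1 and 25.4 in T2. RANKL alone was the highest library, with ratios of 0.910 (0.853 to 0.971) and 0.917 (0.861 to 0.978). Slc31a1 overlaps Cdc26 on the other strand over 8116 bases (400, 441 and 538 reads of Cdc26), so its reads there are uncertain. Slc31a2, its relative of endosomes and lysosomes, stood at 12.6 FPKM without TSH, 9.59 in T1 and 11.3 in T2. T1 was the low library at 0.760 (0.655 to 0.880), T2 was within counting error at 0.894 (0.777 to 1.03), and T2 was higher than T1 at 1.18 (1.01 to 1.37). The difference of Slc31a2 in T1, -0.36 in log2(FPKM + 1), was the most negative of the set after Mt3 and Mt2, number 90 of the 9497 coding genes.

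The transcription factor genes did not differ beyond counting error. Mtf1, the zinc sensor, stood at 4.37 FPKM without TSH, 4.17 in T1 and 4.37 in T2, with ratios of 0.954 (0.853 to 1.07) and 0.9995 (0.896 to 1.12). It shares its 3' end with 1110065P20Rik on the other strand. Mtf2, which despite its name is a Polycomb-associated factor, stood at 6.35, 7.01 and 7.06 FPKM, with ratios of 1.10 (0.986 to 1.24) and 1.11 (0.994 to 1.24). Mtf2 overlaps Tmed5 on the other strand over 2639 bases (1341, 1325 and 1477 reads of Tmed5), so its reads there are uncertain. mRNA of a factor does not measure its activity.

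In T2 against T1, 3 of the 22 genes were higher beyond counting error (Mt1, Slc30a1 and Slc31a2) and 0 lower, where 18.0% of all genes were so (7.93% higher and 10.1% lower). Slc39a7 was within counting error at 0.795 (0.624 to 1.01). With the few reads of Gm20427 added it was just lower, at 0.787 (0.619 to 0.999). The 2-fold rule was passed by 0 of the 22, against 0.831% of all genes. The median difference was 0.05, beside 0.00 over all genes.

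Lists of genes that share inducers or cargo with the metallothioneins were read beside them, by how many of their measured members were beyond counting error, where 23.1% of all genes were so in T1 and 23.4% in T2. Of 8 measured glucocorticoid response genes, 1 was higher in T1 (Fkbp5, at 1.15) and 1 lower (Tsc22d3, encoding GILZ, at 0.845), and 0 of 8 in T2, so 2 of 8 in T1 is near the share of all genes. Ddit4, the member with the largest difference, stood at 0.989, 1.22 and 1.59 FPKM, within counting error in both. The medians were -0.01 in T1 and 0.03 in T2.

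Of 10 measured genes of the metal and oxidative stress response, 1 was higher (Gclc, at 1.07) and 1 lower (Slc7a11, at 0.861) in T1, and 2 were higher in T2 (Hmox1 and Txnrd1). Both counts, 2 of 10, are near the shares of all genes, 23.1% and 23.4%. Hmox1, the haem oxygenase induced by heavy metals, stood at 53.4 FPKM without TSH, 49.9 in T1 and 59.9 in T2. Its ratio was 0.935 (0.870 to 1.01) in T1, within counting error, and 1.12 (1.05 to 1.20) in T2, its highest library. Osgin1, an oxidative stress gene, stood at 1.21, 0.981 and 1.45 FPKM, within counting error against RANKL alone. The medians were -0.01 in T1 and 0.07 in T2.

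Of 5 measured genes that handle zinc outside these families, 2 were lower in T1, where 12.2% of all genes were lower, and 0 were beyond counting error in T2, against 23.4%. Both are divalent metal transporters: Slc11a1, of phagosomes, stood at 7.68, 5.88 and 7.66 FPKM, and Slc11a2 at 24.1, 21.8 and 24.3. T1 was the low library for each, at ratios of 0.765 (0.665 to 0.879) and 0.904 (0.854 to 0.957). Cbwd1, of a family of metal chaperones, stood at 8.04, 7.82 and 9.01 FPKM, within counting error.

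Of 11 measured zinc-dependent enzymes, 2 were higher and 3 lower in T1, against 23.1% of all genes either way, and 3 were lower in T2, against 23.4%. A gene lower in both libraries is also among the osteoclast markers counted above. Anpep, the zinc aminopeptidase CD13, stood at 19.7, 14.9 and 15.4 FPKM, with ratios of 0.754 (0.694 to 0.819) and 0.780 (0.720 to 0.846). Mmp14, a matrix metalloprotease, stood at 4.49, 3.90 and 3.44 FPKM and was lower in both, at 0.868 (0.755 to 0.998) and 0.765 (0.663 to 0.882). Car2, the zinc enzyme that supplies protons for bone resorption, stood at 296, 322 and 304 FPKM and was higher in T1 at 1.09 (1.06 to 1.12). The medians were -0.01 in T1 and -0.04 in T2.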

How the data were processed

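The authors deposited a table of FPKM values with 1 column per library and, beside it, gene length in bases, another value that belongs to no library. The submitters' processing notes name GRCm38 and mm10 (1 assembly under 2 names), and per the labels' protocols a SMARTer mRNA kit was used on total RNA. Which aligner and counter made the values, and whether strand was used, is not given in the sources used here. There were 0 unused columns of per-sample values.

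Multiplying FPKM by gene length gave whole multiples of a fixed step in each library (tolerance 0.01, 100% of values above 0), and these multiples are the reads. The deposited length equalled the union of exons in GENCODE M21 for 30 of 32 genes. Median-of-ratios factors computed here were equal in the 3 libraries (0.99886 each), so that scaling changes no ratio.

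Genes averaging 1 FPKM or more were compared as log2(FPKM + 1), and no test was possible with 1 library in each group. Ratio intervals are exact conditional (Clopper-Pearson) at 95% and cover the counting error of reads only. PCR duplicates of a molecule count as separate reads where they were not removed, which would make the intervals too narrow. The functions were tested on simulated reads.

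All 32 genes were to be named, with the coding genes within 200 kb of the metallothionein cluster and, from each further list, the 2 measured members with the largest difference. Other genes from the lists were named after their values were seen. A gene that this rule would name is not reported here. The genes and lists were chosen with earlier results of these data known. Coding neighbours come from the table's coordinates, and coding sequences from GENCODE M21. Copies were sought with BLAST+ 2.17.0, and upstream windows come from RefSeq on GRCm38.p6. Alternatives were no filter or a filter at 5 FPKM, pseudocounts of 0.1 and 5, rescaling every library to an equal total, median-of-ratios scaling, a 1.5-fold rule and, added after seeing the data, leaving out the metallothioneins. Computations used numpy 2.4.6, pandas 2.3.3, scipy 1.17.1 and matplotlib 3.10.9 in Python 3.11.15.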

Additional observations from a re-analysis of the deposited data

How the results depend on the processing

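For single genes, 381 alternative values of the difference in log2(FPKM + 1) were computed. Each moved by less than the distance from the middle to the end of the gene's counting interval on the log2 scale. None, 0 of them, reversed a difference beyond counting error. A filter cannot change a single gene's difference, and the equal median-of-ratios factors barely can. Only the pseudocounts and the rescaling to an equal total could move these values. The number past the size rule was 1 in T1 and 1 in T2. With a pseudocount of 5 it was 0 and 0, where 0.154% and 0.0723% of all genes passed. With a 1.5-fold rule it was 2 and 2 (Mt2 added), beside 2.62% and 2.46% of all genes. Without the metallothioneins it was 0 and 0. Without them, 0 genes were higher beyond counting error in T1, and 1 was higher and 2 lower in T2. Of all genes, 10.8% were higher in T1, and 10.2% higher and 13.2% lower in T2. With libraries rescaled to the same total, 6 genes instead of 3 were higher in T2 against T1, with Slc39a11, Slc39a6 and Slc30a6 added. The rescaling moved the median difference of all genes there from -0.003 to 0.027. The share of all genes beyond counting error, either way, went from 18.0% to 19.7%. Under that scaling Slc39a11 and Slc39a9 were also lower in T1, where 23.8% of all genes were beyond counting error. The copy search found 0 copies of Mt1, Mt2 and Mt3, so summing over copies could not be run for them. No paired analysis was possible because each group has 1 library. With a pseudocount of 5 the differences of Mt3 were -0.81 in T1 and -0.76 in T2. Depth limits Mt2: 46 to 88 reads leave its ratio in T1 between 0.344 and 0.726.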

Other observations

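The size of the gap between Mt1 and Mt2 depends on the gene length used. The deposited length of Mt1, 1246 bases, equals its whole span, introns included, because 3 annotated transcripts together cover it, while that of Mt2 is 588 bases. All reads of a gene, also those outside its main coding transcript, were divided by that transcript's length (549 and 511 bases). As upper limits for these transcripts, Mt1 stood at 928, 1078 and 1194 FPKM and Mt2 at 10.7, 5.37 and 6.59. The level of Mt1 was then 86.9, 201 and 181 times that of Mt2, against 44.1, 101.8 and 91.9 times with the deposited lengths. The ratio of FPKM of a gene between libraries does not depend on its length.

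Of 9 measured copper chaperones and pumps, 1 was higher and 1 lower beyond counting error in T1, and 1 higher and 2 lower in T2, against 23.1% and 23.4% of all genes either way. The gene lower in T1 was Steap3, a metalloreductase, at 0.867 (0.774 to 0.971), and it was lower in T2 at 0.807 (0.720 to 0.904). Cox11 and Sco1 both encode factors that deliver copper to cytochrome c oxidase. Cox11 stood at 7.89 FPKM without TSH, 6.58 in T1 and 4.69 in T2, within counting error in T1 at 0.834 (0.669 to 1.04) and lower in T2 at 0.595 (0.467 to 0.755). Sco1 stood at 4.79, 5.73 and 6.50 FPKM, with a T1 ratio of 1.20 (1.03 to 1.40) and a T2 ratio of 1.36 (1.17 to 1.58). RANKL alone was the highest library for Cox11 and the lowest for Sco1. The list's medians were 0.05 in T1 and 0.02 in T2.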
